A study of Homo sapiens with 3 samples.

Results

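LNCaP cells that had spent a week in enzalutamide (ENZ) carried very different amounts of MME mRNA, and the cells with the largest share of it were set against the cells with the smallest. Cells were chosen by their MME unique molecular identifiers (UMIs) over all their UMIs, as the top 20% and the bottom 20% of 943 ranked cells. Each group held 188 cells, named MME-high and MME-low here, and 567 cells lay between them. The 3 Drop-seq libraries of the study held 3000 barcodes, of which 2857 passed the same cell filter.

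LNCaP is an androgen-responsive human prostate cancer cell line, started from a lymph node metastasis, and ENZ is an antiandrogen. The library examined, LNCaP-ENZ168, came from LNCaP treated with 10 µM ENZ for 168 h, so MME-high and MME-low cells shared line, dose, time and library. The other libraries were VCaP, another prostate cancer line, in 0.1% DMSO for 48 h (VCaP parental) or in 10 µM ENZ for 48 h (VCaP-ENZ48), and they served here only as a reference for the level of MME. With 1 library per group there was no replicate, cells were not treated as replicates, and no statistical test was made. Intervals are 95% intervals of the counts and cover counting error only, and a gene was called past the fold at a 1.5-fold difference.

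MME encodes neprilysin, also known as CD10 or CALLA, a zinc metallopeptidase of the cell surface that cleaves small signalling peptides such as endothelins, bombesin-like peptides and enkephalins outside the cell. In normal prostate it marks the apical face of luminal secretory cells, and it is a known androgen-regulated gene. Surface peptidases of this kind set how long a peptide signal lasts near its receptor. Prostate cells that divide pass through S phase, when DNA is copied, and G2 and mitosis, when the chromosomes are condensed and parted, and each stage has its own set of genes.

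The MME values that chose the cells were as follows. MME (GRCh38 chromosome 3, 155024124 to 155183704, plus strand) summed to 5714 UMIs in MME-high cells, or 5081 counts per 1000000 UMIs (CPM; 95% interval 4950 to 5215). MME-low cells held 1053 MME UMIs, or 925 CPM (95% interval 870.4 to 983.1). Between them, in 3 steps of 189 cells each, the level was 3255, 2472 and 1769 CPM. Single MME-high cells had 10 to 175 MME UMIs with a median of 26, and single MME-low cells had 0 to 35 with a median of 5. The lowest MME-high cell had 16 MME UMIs among 4201 (3809 CPM) and the next cell below had 15 among 3939 (3808 CPM). At the other end, the highest MME-low cell had 14 among 9976 (1403 CPM) and the cell above it had 5 among 3555 (1406 CPM). Both borders therefore passed through a continuous run of cells with no gap. Only 3 of the 943 cells had no MME UMI.

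**Figure D1:**
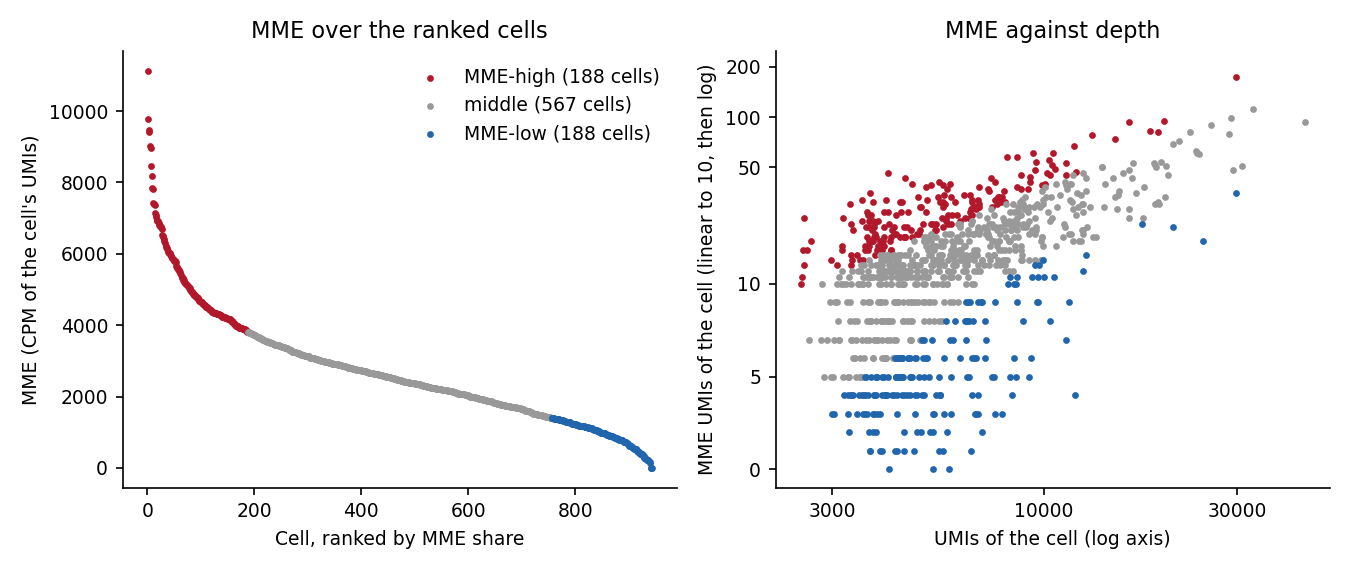
MME in the 943 LNCaP-ENZ168 cells: the left panel plots each cell's MME share in CPM against its rank, and the right panel its MME UMIs against its total UMIs. Red points are the 188 MME-high cells, blue points the 188 MME-low cells and grey points the 567 cells between them; the share runs down without a gap at either border, at 3809 and 1403 CPM, and both groups span similar depths.

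Part of this spread was counting error, because the median cell held only 14 MME UMIs. When each cell's UMIs were split at random into 2 parts, and cells were ranked on 1 part and MME was read in the other, MME was at 4548 CPM in the top 20% and 1353 CPM in the bottom 20%, a log2 ratio of 1.75 beside 2.46 in the ranking itself. MME thus kept a difference between the groups in UMIs that had not ranked the cells. Over all cells the variance of MME was 5.37 times what equal shares in every cell would give. The median over the 238 genes of at least 500 CPM was 2.07, and MME was in place 20 of these, behind MT-RNR2, MALAT1 and 17 others. This ratio grows with the level of a gene and is given as a description.

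Markers of LNCaP were present in both groups, though at different levels. NCAM2, a neural adhesion molecule that LNCaP carries and VCaP lacks, was at 926 CPM in MME-high and 659 CPM in MME-low cells. PPP2R2A, a phosphatase subunit deleted in VCaP, was at 517 and 423 CPM. ADGRG6 and UGT2B17, also chosen as LNCaP markers, were past the fold, with log2 ratios of 1.22 and 0.93. Of the genes restricted to VCaP, ERG, ITM2A and ADIRF had no UMI, and S100A10 and TSPAN8 had 2 UMIs each in MME-high cells and 0 in MME-low cells. A count of 0 allows up to 2.67 CPM in MME-high and 2.64 CPM in MME-low cells. The epithelial marker EPCAM was at 178 and 177 CPM (log2 ratio 0.01, 95% interval -0.28 to 0.30). The epithelial keratins KRT8 and KRT18 had log2 ratios of 0.48 and 0.14. Both groups therefore carried LNCaP markers. In VCaP, MME was at 12.1 CPM in VCaP parental and 17.9 CPM in VCaP-ENZ48. A UMI of MME was seen in 99.7% of LNCaP-ENZ168 cells at a median depth of 5390 UMIs, in 16.2% of VCaP parental cells at 17817 UMIs and in 13.1% of VCaP-ENZ48 cells at 11704 UMIs. With every cell thinned to 2000 UMIs these shares were 96%, 1.91% and 3.49%.

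Depth differed little between the groups. The median MME-high cell had 4948 UMIs and 2486 genes, and the median MME-low cell 5052 UMIs and 2422 genes. Mitochondrial transcripts took a median of 7.54% of UMIs in MME-high and 8.42% in MME-low cells. Of the barcodes, 38 MME-high and 49 MME-low ones ended in an unread base, 5 and 4 exceeded 3 times the median depth, and 2 in each group were 1 base apart from a barcode with more UMIs. LNCaP-ENZ168 shared 1 barcode with each VCaP library. The part of these differences in the results was not tested, except where an alternative is named.

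Leaving out MME, 3909 genes reached 50 CPM on average over both groups, and of these 419 were 1.5-fold or more higher in MME-high cells (10.7%) and 311 were 1.5-fold or more lower (7.96%). Among these, 92 were at least 2-fold higher and 83 at least 2-fold lower. The median log2 ratio over all genes was 0.03, with quartiles at -0.27 and 0.33. The balance of both directions rested on the scaling. With TMM factors the median of all genes moved by -0.11 and 293 genes were higher and 493 lower, so that 37.3% of the called genes were higher instead of 57.4%. Of the 42 genes named by rule that rose, 4 were under the fold with TMM factors (NEAT1, SPINT2, EPHX1 and P4HA1). With totals that left out mitochondrial and ribosomal protein genes, 394 were higher and 489 lower (44.6% higher). The filter also matters to the count, since 110 of the higher genes were under 50 CPM in MME-low cells and 94 of the lower genes were under 50 CPM in MME-high cells. Over all 5 steps of the ranking, 193 of the 419 higher genes went down at every step from MME-high to MME-low, and 107 of the 311 lower genes went up at every step. Of all 3909 genes tested, 315 went down and 239 went up at every step. The called genes were chosen by the difference between the ends, which favours such profiles, so these counts are a description.

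**Figure D2:**
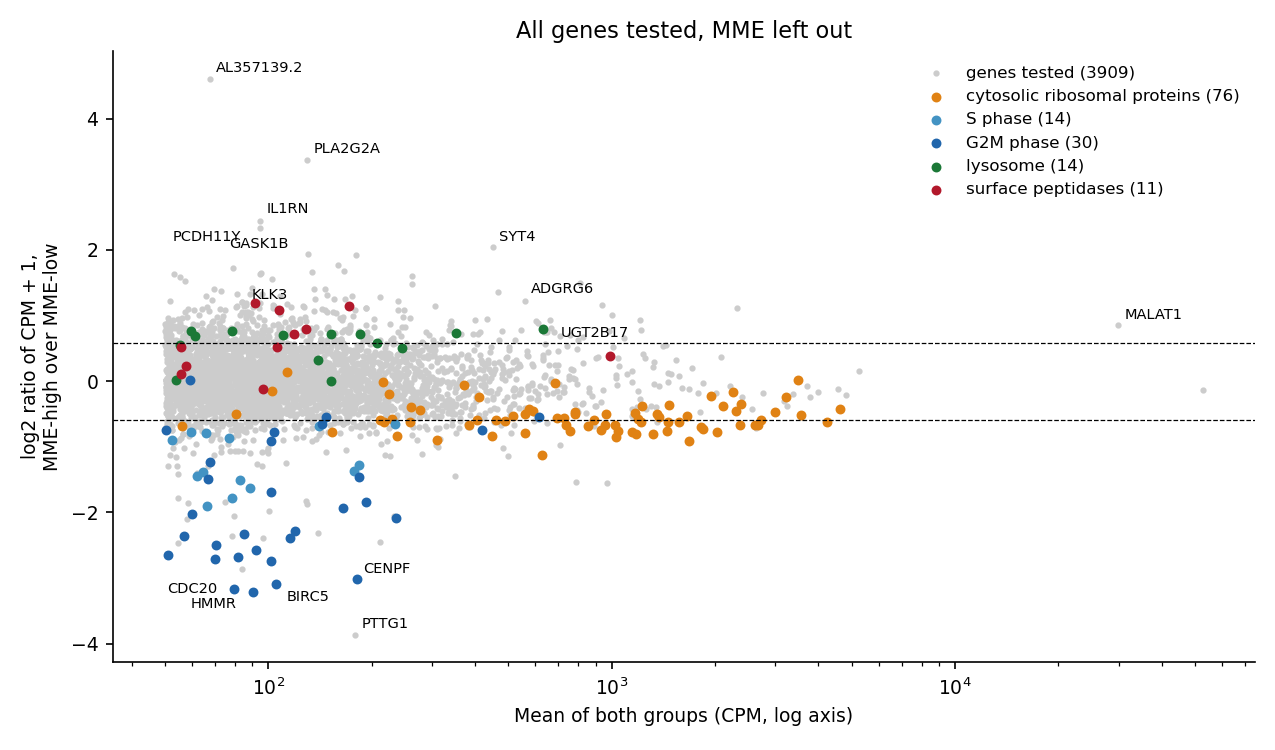
Mean level of both groups (CPM, log axis) against the log2 ratio of MME-high over MME-low for the 3909 genes tested; dashed lines mark 1.5-fold. S phase and G2M phase genes (blue) lie at the bottom, cytosolic ribosomal proteins (orange) in a band below 0 with a median of -0.59, and lysosomal genes (green) and surface peptidases (red) mostly above 0.

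None of the 12 largest rises was on the S phase or G2M lists. These lists held only 14 and 30 of the 3909 genes tested, so their absence from 12 genes says little. PLA2G2A, a secreted phospholipase, stood at 237 CPM in MME-high cells, 89.3, 31.2 and 38.2 CPM in the steps between, and 22 CPM in MME-low cells (log2 ratio 3.38, 95% interval 2.84 to 4.09). A single cell gave 108 of its 267 UMIs in MME-high cells, and without the cell richest in PLA2G2A in each group the log2 ratio was 2.88. IL1RN, the secreted antagonist of the interleukin 1 receptor, was at 161 and 29 CPM (log2 ratio 2.43, 95% interval 1.93 to 3.05). It was seen in 82 MME-high and 25 MME-low cells, so its rise was spread over many cells. SYT4, a synaptotagmin of secretory vesicles, went down through the ranking from 728 CPM in MME-high cells to 417, 333, 186 and 176 CPM, and its log2 ratio was 2.04 (95% interval 1.83 to 2.28). MYRIP, a linker that ties secretory granules to actin motors, had 137 UMIs in MME-high and 41 in MME-low cells (log2 ratio 1.73).

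SEMA3C, a secreted semaphorin guidance factor, had 320 UMIs in 136 MME-high cells and 85 in 60 MME-low cells (log2 ratio 1.92, 95% interval 1.58 to 2.29). GASK1B, a Golgi kinase-like protein, was at 208 and 53.6 CPM (log2 ratio 1.94). ACPP, which encodes prostatic acid phosphatase, a classical product of luminal prostate cells, was at 145 and 45.7 CPM (log2 ratio 1.64, 95% interval 1.21 to 2.14). NIPAL3, a magnesium transporter-like membrane protein, was at 254 and 79.1 CPM, and the H2B histone gene H2BC21 at 248 and 72.1 CPM. LDOC1 was at 205 and 64.2 CPM. The log2 ratios of these 3 lay between 1.66 and 1.77. The largest log2 ratio of all, 4.61 (95% interval 3.64 to 6.54), belonged to AL357139.2, a gene named only by its clone, whose 147 UMIs came from 37 MME-high cells and whose 5 UMIs came from 3 MME-low cells. PCDH11Y, a protocadherin with a near-identical copy, PCDH11X, was at 158 and 30.8 CPM, and reads of the pair could not be told apart with certainty. Of these 12 genes, chosen by their ends, 9 went down at every step from MME-high to MME-low, beside 315 of all 3909 genes tested.

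All 12 largest falls were genes of cell division, and 10 of them were on the S phase or G2M lists, which held 14 and 30 of the 3909 genes tested. PTTG1, securin, which holds back the separation of sister chromatids until anaphase, was at 22.2 CPM in MME-high cells (25 UMIs). It was at 67, 64 and 162 CPM in the steps between, and at 337 CPM in MME-low cells (383 UMIs). The log2 ratio of PTTG1 was -3.86 (95% interval -4.57 to -3.34). PTTG1 was 14.5-fold lower and was seen in 13 MME-high and 85 MME-low cells. CDC20, the activator of the anaphase-promoting complex, was at 15.1 and 144 CPM (log2 ratio -3.17). HMMR, a spindle protein, was at 16.9 and 164 CPM, and BIRC5, survivin, of the chromosomal passenger complex, at 21.3 and 190 CPM. The kinetochore genes CENPF, CENPE, NUF2 and NDC80 had log2 ratios of -3.02, -2.71, -2.65 and -2.50. PBK, a mitotic kinase, UBE2C, the ubiquitin carrier of the anaphase-promoting complex, and CDCA3 had log2 ratios of -2.86, -2.74 and -2.68. MKI67, the proliferation antigen Ki-67, was at 25.8 CPM in MME-high cells, 68.5, 56.5 and 117 CPM between, and 159 CPM in MME-low cells (log2 ratio -2.58, 95% interval -3.24 to -2.05). Its step profile was not smooth, but the MME-low end was the highest.

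**Figure D3:**
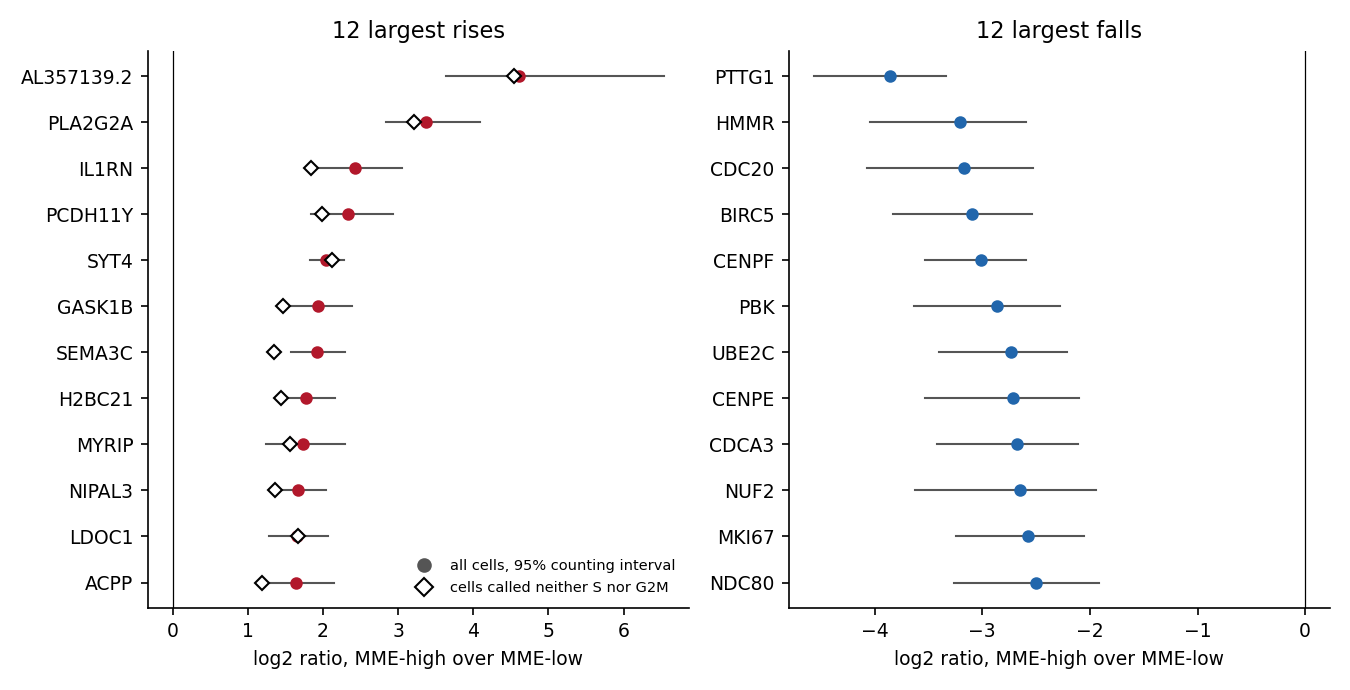
The 12 largest rises and the 12 largest falls as log2 ratios of MME-high over MME-low; filled points are all cells with bars for the 95% counting interval, and open diamonds are the same ratio among cells called neither S nor G2M, drawn where the gene still reached 50 CPM. All 12 rises lie past 1.5-fold in both, while none of the 12 falls reached 50 CPM among cells called neither S nor G2M, which were chosen by lists that hold 10 of these genes.

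Most tested members of the cell cycle lists fell. Every one of the 14 S phase genes tested fell, with a median log2 ratio of -1.32. Of the 30 G2M genes tested 27 fell (90%, beside 7.96% of all genes tested), with a median of -2.05. PCNA, the sliding clamp of DNA replication, was at 107 and 260 CPM (log2 ratio -1.28), TYMS, thymidylate synthase, at 27.6 and 105 CPM (log2 ratio -1.90), and TOP2A, which untangles DNA before division, at 67.6 and 262 CPM (log2 ratio -1.94). The member nearest to 0 was CTCF, a G2M list gene with roles outside the cycle, at 59.6 and 58.9 CPM. Summed G2M list UMIs were at 2355 CPM in MME-high cells, 3200, 3166 and 5105 CPM between and 7049 CPM in MME-low cells. S phase list UMIs were at 1275, 1933, 1868, 2962 and 2914 CPM in the same order. The fall was thus spread over the lower end of the ranking, and the fourth step was close to MME-low for the S phase list but not for the G2M list.

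Calls of cell cycle phase went the same way. Of the MME-high cells, 17% (32 of 188, 95% interval 11.9 to 23.2%) were called S or G2M, against 56.9% (107 of 188, 95% interval 49.5 to 64.1%) of the MME-low cells. In the steps between, the share was 32.3%, 25.4% and 47.6%. G2M calls made up 7.45% of MME-high and 29.3% of MME-low cells. Read the other way, MME was at 2992 CPM (95% interval 2938 to 3046) in the 605 cells called neither, 2285 CPM (2204 to 2368) in the 197 cells called S and 1924 CPM (1839 to 2011) in the 141 cells called G2M. MME was therefore present in all phases, with its highest level in cells called neither.

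Promoter windows are shown for MME and for a pair of the strongest falling genes, because many mitotic genes are known to share a pair of promoter elements. These are the CCAAT box and the cell cycle homology region, searched here as CCAAT and TTTGAA on both strands, in the 250 bases upstream of RefSeq start sites (GRCh38.p14). Capitals mark these letters, also in their reverse form. The windows lie at chr3:155079422-155079646 (plus strand, inside an intron of longer MME transcripts, ended before an annotated exon), chr1:43358731-43358980 (plus strand, upstream of CDC20) and chr10:128126424-128126673 (minus strand, upstream of MKI67).
MME: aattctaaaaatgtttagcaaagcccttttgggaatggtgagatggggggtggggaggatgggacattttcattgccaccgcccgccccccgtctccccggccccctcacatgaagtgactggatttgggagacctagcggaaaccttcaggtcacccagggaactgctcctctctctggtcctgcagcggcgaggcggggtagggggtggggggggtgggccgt
CDC20: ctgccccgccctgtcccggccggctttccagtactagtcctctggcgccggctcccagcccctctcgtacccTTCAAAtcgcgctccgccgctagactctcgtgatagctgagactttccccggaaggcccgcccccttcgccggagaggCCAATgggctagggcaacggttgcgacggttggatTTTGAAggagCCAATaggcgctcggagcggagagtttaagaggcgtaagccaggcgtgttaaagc
MKI67: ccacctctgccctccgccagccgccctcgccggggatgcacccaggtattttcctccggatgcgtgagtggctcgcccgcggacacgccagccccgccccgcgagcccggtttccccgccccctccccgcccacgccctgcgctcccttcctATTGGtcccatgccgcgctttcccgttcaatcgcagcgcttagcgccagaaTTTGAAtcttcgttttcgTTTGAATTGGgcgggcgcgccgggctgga

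CDC20 and MKI67 each held 2 CCAAT and 2 TTTGAA matches, and in MKI67 the last pair shared a base. Of the 4 windows listed for MME, which belong to different start sites, the one printed is the most upstream and held neither motif, while 1 of the others held a CCAAT match and none a TTTGAA match. Both motifs occurred together upstream of 5.79% of the 27305 genes with a window and of 4.73% of the 3233 tested genes with one. The share was 10.3% of the 253 falling genes with a window (26 genes) and 4.72% of the 339 rising genes with one (16 genes). Of the 12 largest falls, 9 had a window and 3 of these (CDC20, HMMR and MKI67) held both motifs, as did GASK1B and NIPAL3 among the 10 largest rises with a window. A match is a description of letters and not a site in use.

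The same ranking among the 605 cells called neither S nor G2M compared 121 MME-high with 121 MME-low cells, with MME at 5389 and 1151 CPM. Of 3890 genes tested, 330 were 1.5-fold or more higher (8.48%) and 194 were 1.5-fold or more lower (4.99%). These cells are part of those already compared, so the overlap of the calls is a description: 216 genes were higher in both, which is 51.6% of the higher genes in all cells and 65.5% of those in these cells, and 124 were lower in both, 39.9% and 63.9%. The phases were called from the S phase and G2M lists, so the choice of cells bears directly on these lists, and their medians of -0.10 over 5 and 0.06 over 9 genes tested are only a description. All 12 largest rises stayed past 1.5-fold, from 1.19 for ACPP to 4.54 for AL357139.2 on the log2 scale. SYT4 was at 807 and 185 CPM among these cells, a log2 ratio of 2.12 (95% interval 1.85 to 2.40).

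**Figure D4:**
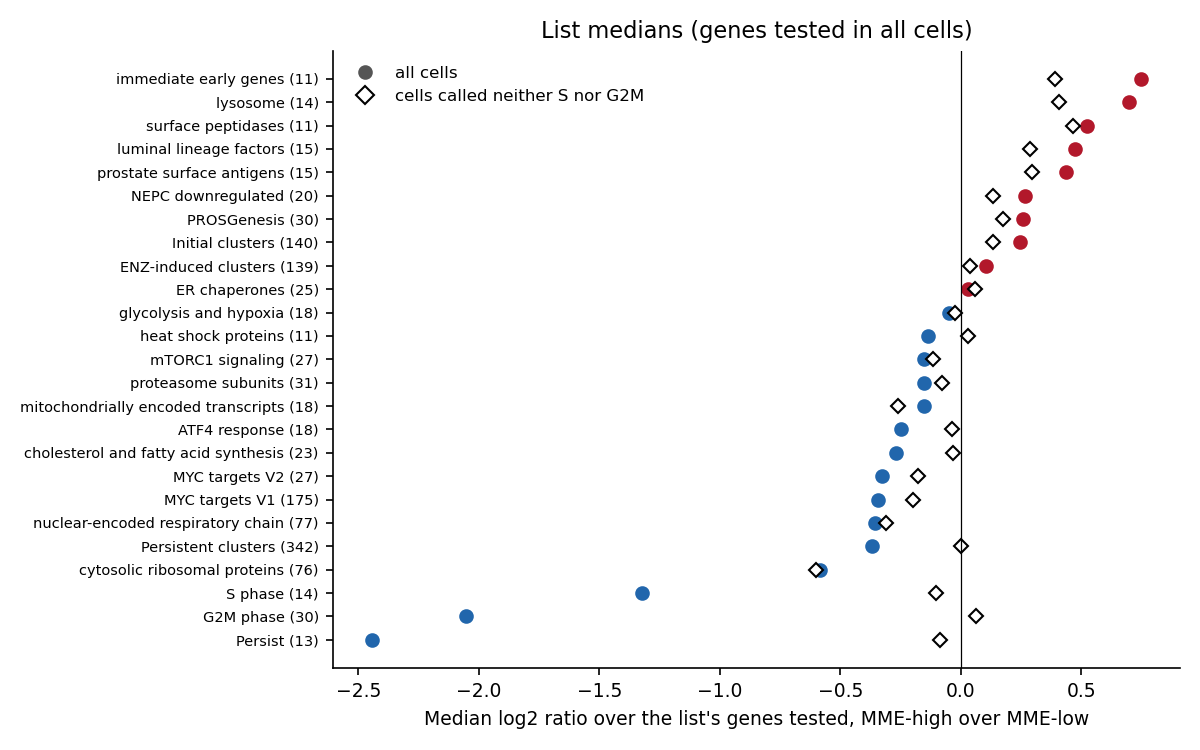
Median log2 ratio of MME-high over MME-low for gene lists with at least 10 genes tested, with the number of genes; filled points are all cells and open diamonds cells called neither S nor G2M. The number in brackets is for all cells, and the open diamonds of the S phase, G2M and Persist lists rest on 5, 9 and 5 genes in cells that were chosen by the S phase and G2M lists themselves. Cytosolic ribosomal proteins lie near -0.59 in both.

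Of the 11 tested genes of the surface peptidase list, MME left out, 5 rose (45.5%, beside 10.7% of all genes tested) and none fell. The median log2 ratio was 0.52 in all cells and 0.47 among cells called neither S nor G2M. The risers were TMPRSS2, NAALADL2, ADAM9, ADAM10 and CPE. TMPRSS2, an androgen-regulated serine protease, was at 127 and 55.4 CPM (log2 ratio 1.18, 95% interval 0.76 to 1.65), and NAALADL2, a relative of prostate-specific membrane antigen, at 237 and 106 CPM (log2 ratio 1.15). FOLH1, prostate-specific membrane antigen itself, a carboxypeptidase, was at 1118 CPM in MME-high and 860 CPM in MME-low cells, a log2 ratio of 0.38 (95% interval 0.26 to 0.50), which is under the fold. NLN, neurolysin, was the lowest of the list at -0.11. DPP4 had 1 UMI in MME-high cells and none in MME-low cells, and ANPEP had none in either. Genes of a separate list of peptide ligands and receptors were mostly at or near 0: of 55 genes 3 could be tested. These were APP and APLP2, amyloid precursor proteins, which rose with log2 ratios of 0.87 and 0.82 (APP was at 0.43 with cells thinned to 2000 UMIs), and RAMP1, a receptor partner, at 0.15.

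Of 15 tested genes of the list of prostate surface antigens 4 rose (26.7%, beside 10.7% of all genes tested) and none fell. The median log2 ratio was 0.44. ADGRG6, an adhesion receptor of the G protein-coupled kind that LNCaP has and VCaP lacks, went down through the ranking from 781 CPM to 605, 483, 478 and 336 CPM (log2 ratio 1.22, 95% interval 1.04 to 1.39). STEAP2, a metalloreductase of prostate epithelium, went from 1345 CPM in MME-high to 665 CPM in MME-low cells (log2 ratio 1.01, 95% interval 0.89 to 1.14). Its relative STEAP1 was at 879 and 605 CPM, a log2 ratio of 0.54, under the fold. ERBB3 and TSPAN1 were the other risers. CD9 was at 756 and 637 CPM (log2 ratio 0.25).

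Androgen response genes gave a divided picture. Of those named here, ABCC4 and KLK3 rose and CENPN fell. ABCC4, an efflux pump, was at 143 and 45.7 CPM (log2 ratio 1.63) and CENPN, a centromere protein, at 55.1 and 137 CPM (log2 ratio -1.30, and -0.47 among cells called neither S nor G2M). KLK3, prostate-specific antigen, was at 119, 120, 99.6, 66.9 and 52.7 CPM from MME-high to MME-low (log2 ratio 1.16, 95% interval 0.73 to 1.64), but it was seen in only 36 and 26 cells, and 1 MME-high cell gave 21 of its 134 UMIs. The KLK3 call was lost in thinned cells (log2 ratio 0.28), within bands of mitochondrial share (0.46) and with cells ranked by MME over UMIs outside mitochondrial and ribosomal protein genes (0.52). KLK2, FKBP5 and PMEPA1, other classical targets, stayed under 50 CPM, at log2 ratios of 0.69 (95% interval -0.15 to 1.63), -0.25 (-1.04 to 0.50) and 0.49 (an interval that also includes 0). The intervals of KLK2, FKBP5 and PMEPA1 thus include 0, and no common direction of androgen targets was seen.

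Of 15 tested lineage factors of luminal cells 5 rose (33.3%, beside 10.7% of all genes tested), ACPP, ELF3, ETV1 and GRHL2 among them. None fell, and the median log2 ratio was 0.48. The pioneer factor FOXA1 was at 175 and 126 CPM (log2 ratio 0.48) and HOXB13 at 458 and 380 CPM (log2 ratio 0.27), both under the fold. The keratins KRT8 and KRT18 had log2 ratios of 0.48 and 0.14, and PRAC1 was the lowest of the list at -0.41. Among cells called neither S nor G2M the median of the list was 0.29, with 4 of 15 past the fold upward and 1 downward. The shares over all genes tested in these cells were 8.48% and 4.99%.

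UGT2B15 and UGT2B17, which couple androgens to glucuronic acid for removal, rose by similar amounts. UGT2B17 was at 868, 653, 497, 392 and 454 CPM through the ranking (log2 ratio 0.93, 95% interval 0.78 to 1.09) and UGT2B15 at 569, 319, 315, 285 and 296 CPM (log2 ratio 0.94, 95% interval 0.75 to 1.14). Among cells called neither S nor G2M their log2 ratios were 1.22 and 1.18. The genes are close copies whose reads may have been split by the counting, so the pair is best read together. UGT2B11 had 3 UMIs in MME-high and 10 in MME-low cells (log2 ratio -1.42, 95% interval -4.22 to 0.24).

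**Figure D5:**
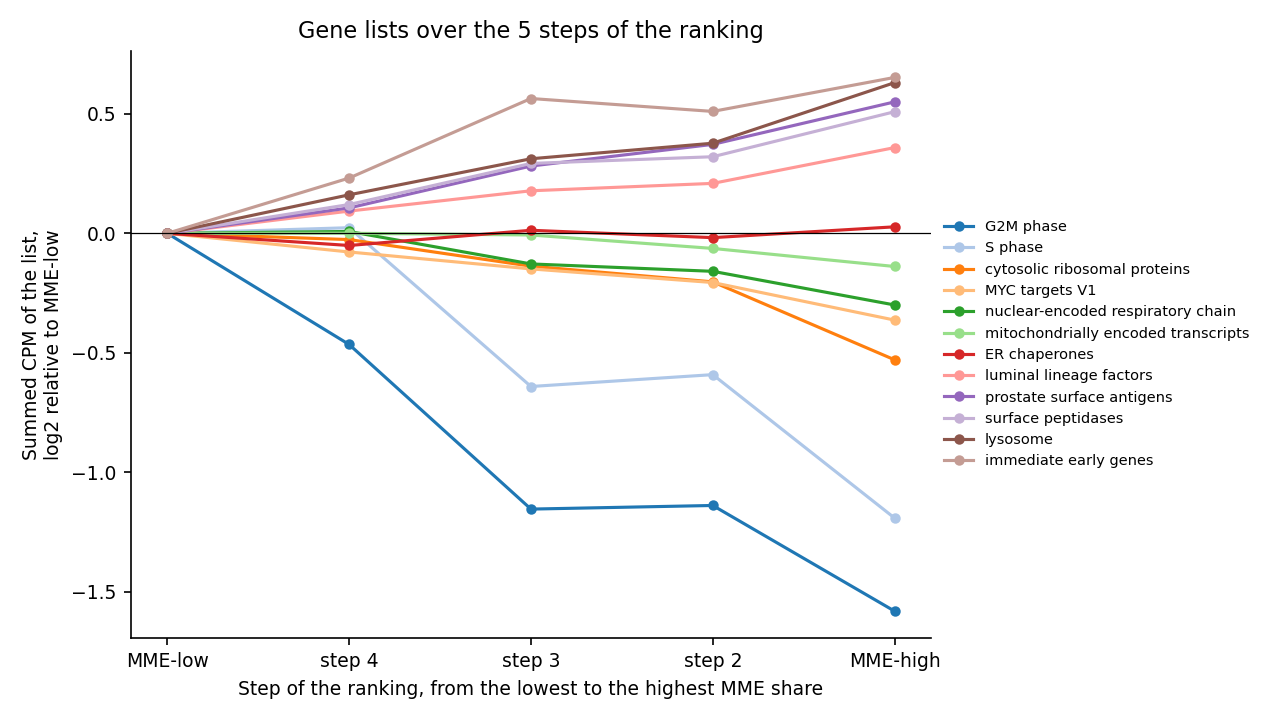
Summed CPM of 12 gene lists over the 5 steps of the ranking, from MME-low on the left to MME-high on the right, as log2 relative to MME-low. G2M and S phase genes end at -1.58 and -1.19, cytosolic ribosomal proteins at -0.53, and immediate early, lysosomal and surface antigen lists between 0.55 and 0.65; MME is left out of every list.

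Of 14 lysosomal genes tested, 9 rose (64.3%, beside 10.7% of all genes tested) and none fell, with a median log2 ratio of 0.70. Among cells called neither S nor G2M 5 of 13 rose (beside 8.48% of all genes tested there), with a median of 0.41. PSAP, prosaposin, was at 802 and 461 CPM (log2 ratio 0.80, 95% interval 0.64 to 0.96, and 0.57 in thinned cells), and LAMP2, a protein of the lysosomal membrane, at 439 and 265 CPM (log2 ratio 0.73). The cathepsins CTSB and CTSL and the enzymes HEXA, NEU1 and ASAH1 were also among the risers. NPC2, which carries cholesterol out of lysosomes, was at 152 CPM in both. MHC class I genes showed a smaller shift, with a median of 0.48 over 5 genes and none past the fold. B2M, the shared light chain, was at 526 and 367 CPM (log2 ratio 0.52) and HLA-C at 176 and 118 CPM (log2 ratio 0.58). HLA genes are close copies of one another, and their counts are less certain.

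Immediate early genes answer growth factors and stress within minutes. Of 11 tested, 8 rose (72.7%, beside 10.7% of all genes tested) and none fell, with a median log2 ratio of 0.75. NR4A1, an orphan nuclear receptor, had 131 UMIs in MME-high and 52 in MME-low cells (log2 ratio 1.33) and JUN, a subunit of AP-1, was at 806 and 479 CPM (log2 ratio 0.75). FOS, the partner of JUN, was at 1712 and 1163 CPM (log2 ratio 0.56), under the fold, and MYC was at 119 and 148 CPM (log2 ratio -0.31, 95% interval -0.65 to 0.03). Among cells called neither S nor G2M the median was 0.39, with 5 of 12 past the fold (beside 8.48% of all genes tested there). JUN had a log2 ratio of 0.26 in these cells.

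Of 76 cytosolic ribosomal protein genes tested, 39 fell (51.3%, beside 7.96% of all genes tested) and none rose in all cells, with a median log2 ratio of -0.59. Among cells called neither S nor G2M 40 of 77 fell (beside 4.99% of all genes tested there), with a median of -0.60. Summed over the family they took 75313 CPM in MME-high cells, 94425, 98824 and 106752 CPM between and 108706 CPM in MME-low cells. The largest step lay between MME-high cells and the next cells in the ranking. RPS6 was at 3946 and 5317 CPM (log2 ratio -0.43), and RPL22L1, a paralog of RPL22, at 396 and 860 CPM (log2 ratio -1.12). RPS3A was the highest of the family at 0.14. When cells were ranked by MME over UMIs outside mitochondrial and ribosomal protein genes, the family's median was -0.45, and in UMIs that had not ranked the cells it was -0.44. Of MYC target genes of set V1, which hold many ribosome and processing genes, 44 of 175 fell (25.1%, beside 7.96% of all genes tested). A single gene of the set rose, and the median was -0.34.

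Nuclear long noncoding RNAs went both ways. Of 9 tested, 3 rose and 3 fell (33.3% each, beside 10.7% and 7.96% of all genes tested), with a median log2 ratio of -0.03. Both with TMM factors and among cells called neither S nor G2M 1 rose and 3 fell. MALAT1, an abundant nuclear noncoding RNA, was at 38464, 31002, 28620, 23859 and 21246 CPM from MME-high to MME-low (log2 ratio 0.86, 95% interval 0.83 to 0.88) and stood at 0.61 among cells called neither S nor G2M. NEAT1, the scaffold of paraspeckles, was at 872 and 542 CPM (log2 ratio 0.68), and was under the fold at 0.58 with TMM factors and in thinned cells and at 0.37 among cells called neither S nor G2M. GAS5, a noncoding RNA whose host transcript carries small nucleolar RNAs, fell, at 684 and 1094 CPM (log2 ratio -0.68), and so did DRAIC at -0.82. The call of GAS5 was lost with the top and bottom 30% (-0.33), in UMIs that had not ranked the cells (-0.44) and within bands of total UMIs (-0.55), and that of DRAIC in thinned cells (-0.39). Mitochondrially encoded transcripts were at 83364 CPM in MME-high and 91786 CPM in MME-low cells, with a median log2 ratio of -0.15 over 18 genes and none past the fold. Nuclear-encoded respiratory chain genes had a median of -0.36 over 77, with 8 falling (10.4%, beside 7.96% of all genes) and none rising. The part of RNA quality or of the balance of nuclear and cytoplasmic RNA in these results was not tested.

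Stress and biosynthesis lists had medians between -0.27 and 0.07. ER chaperones had a median log2 ratio of 0.03 over 25 genes, which was -0.07 with TMM factors and -0.05 with totals without mitochondrial and ribosomal protein genes. The median was -0.25 over 18 genes for the ATF4 response, -0.13 over 11 for heat shock proteins, -0.15 over 31 for proteasome subunits, and -0.05 over 18 for glycolysis and hypoxia genes. Within the last, LDHA, lactate dehydrogenase A, fell to 374 CPM in MME-high cells from 646 CPM in MME-low cells (log2 ratio -0.79, but -0.41 with the top and bottom 30% and -0.54 within bands of total UMIs). P4HA1, a collagen prolyl hydroxylase, rose (log2 ratio 0.64) but was under the fold in 8 alternatives, down to 0.15 in thinned cells. Genes of cholesterol and fatty acid synthesis had a median of -0.27 over 23, with EBP, a sterol isomerase, at -1.10 (-0.36 among cells called neither S nor G2M) and SC5D, a sterol desaturase, at 0.80 (0.49 with the top and bottom 30%, and 0.38 in UMIs that had not ranked the cells). MT2A, a metallothionein, fell from 90.5 to 33.8 CPM (log2 ratio -1.40), but was at -0.10 among cells called neither S nor G2M. Interferon-stimulated genes had a median of 0.07 over 3, which turned to -0.03 with TMM factors.

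The study's own gene lists include PROSGenesis, a signature from regenerating prostate tissue, and markers of cell clusters in other LNCaP libraries. PROSGenesis had a median log2 ratio of 0.26 over 30 genes, with 8 rising (26.7%, beside 10.7% of all genes tested) and none falling. Among the risers were ID1 at 1.14 and SPINT2 at 0.66. With TMM factors 4 of the 30 rose, beside 293 of all 3916 genes tested, and SPINT2, at 0.55, was no longer past the fold. Among cells called neither S nor G2M, 5 of 31 were past the fold upward and 2 downward, beside 8.48% and 4.99% of all genes tested there. Markers of the clusters called initial had a median of 0.25 over 140 genes with 31 rising (22.1%) and 7 falling (5%). All genes tested gave 10.7% higher and 7.96% lower. Markers of ENZ-induced clusters had a median of 0.10 over 139 with 33 rising (23.7%) and 7 falling (5.04%), and this median turned to -0.0024 with TMM factors. Initial cluster markers had 27 rising and 13 falling of 140 with TMM factors, beside 293 and 493 of all 3916 genes tested. Among cells called neither S nor G2M initial cluster markers had a median of 0.13 over 139 with 17 rising and 13 falling. ENZ-induced cluster markers had one of 0.04 over 142 with 25 rising and 7 falling in these cells. The shares over all genes tested in them were 8.48% and 4.99%. Markers of persistent clusters had a median of -0.37 over 342 with 24 rising (7.02%) and 121 falling (35.4%). Among cells called neither S nor G2M their median was 0.00 over 279, with 17 rising and 13 falling, beside the same 8.48% and 4.99%. The Persist list, largely of mitotic genes, had a median of -2.44 over 13. Several of these lists, PROSGenesis and the initial clusters among them, hold MME itself, which was left out, and they share genes with each other and with the cell cycle lists. Cluster markers chosen in LNCaP are not independent evidence about LNCaP.

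Markers of other cell types were scarce. Of 12 basal markers 5 had any UMI and none reached 50 CPM, with sums of 83.6 CPM in MME-high and 57.1 CPM in MME-low cells. Fibroblast and EMT genes summed to 128 and 70.3 CPM, most of it FN1, fibronectin, at 72.9 and 30.8 CPM (log2 ratio 1.22, 95% interval 0.66 to 1.86). Neuroendocrine markers summed to 782 and 243 CPM, of which SYT4 gave 728 and 176 CPM. The defining markers CHGA and INSM1 had no UMI. Genes higher in neuroendocrine prostate cancer had a median of -1.85 over 3 genes tested, STMN1 (-2.05) and DNMT1 (-0.45) among them, and these also follow the cell cycle. Genes lower in that disease had a median of 0.27 over 20, with 6 rising (30%, beside 10.7% of all genes tested) and RGS10 falling. Among cells called neither S nor G2M the median of this list was 0.13 over 20, with 3 rising and 1 falling. The shares over all genes tested in these cells were 8.48% and 4.99%.

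The neighbours of MME on the chromosome did not share its difference. Of 14 tested genes within 5 Mb of it, from PFN2 to MFSD1, 2 were 1.5-fold or more higher (14.3%) and none lower, with a median log2 ratio of 0.10. On the long arm of chromosome 3, 19 of 137 genes were higher (13.9%) and 6 lower, with a median of 0.04, beside 10.6% higher and a median of 0.03 over the 3853 genes that could be placed by symbol.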

How the data were processed

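Per the study's methods, STAR mapped the Drop-seq reads to GRCh38, and the authors made UMI counts by means of Picard and Drop-seq tools, using an earlier Gencode annotation than the one here and expecting 1000 cells per library. The study describes a filter on genes, molecules and mitochondrial share per cell, whose thresholds for these libraries are not given in the sources used here. Per barcode and gene the deposited files hold whole UMI counts without normalization, for 1000 barcodes and 6513423 UMIs in LNCaP-ENZ168. Cells were kept with at least 2000 UMIs, at least 300 genes and at most 25% mitochondrial UMIs, which left out 57 barcodes. Doublets were not identified, since no caller was run.

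UMIs were summed over each group and scaled to CPM. Ratios are log2 of CPM + 1. They carry exact conditional intervals, sums exact Poisson and shares exact Clopper-Pearson intervals, and 3 counts were taken as the upper limit behind a 0. Phases came from Seurat 5.3.0 on cells thinned to 2000 UMIs, with genes seen in at least 10 cells. Named genes were MME, the 12 largest rises and falls, chosen prostate, surface and proliferation genes and up to 4 members of each of 50 lists. Others were named after their values were seen. Some list members were matched by another symbol through RefSeq. Positions are from Gencode 44 and windows from RefSeq. The members and lists were chosen with earlier results of these data known. Computations used Python 3.11.15, numpy 2.4.6, pandas 2.3.3, scipy 1.17.1, matplotlib 3.10.9, R 4.3.3 and edgeR 4.0.16 (TMM factors only), and were tested on simulated data. The submitters' processing notes name GRCh38 and hg38. Some genes are not reported here.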

Additional observations from a re-analysis of the deposited data

How the results depend on the processing

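No paired analysis was possible because both groups come from 1 library and share no replicate numbers. Of 22 alternatives, 1 was chosen after seeing the data: it left out, for each gene, the cell richest in it in each group, and gave 422 genes higher and 306 lower. The counts of genes past 1.5-fold, 419 higher and 311 lower, stayed within 1.5 times under the cell filters, the bands of depth and mitochondrial share, thinning, the split of UMIs, equal weights, median-of-ratios and the pseudocount. They were 264 and 183 with the top and bottom 30%, 493 lower with 10%, 194 lower among cells not called S or G2M, 493 lower with TMM factors and 489 lower with totals without mitochondrial and ribosomal protein genes. With minima of 20 and 100 CPM and no minimum beyond 1 UMI they were 939 and 589, 191 and 165, and 2818 and 1761, since other numbers of genes were tested. Among cells not called S or G2M, which the S phase and G2M lists themselves chose, the G2M median turned to 0.0637, that of persistent clusters to 0.000297 and that of the S phase list to -0.10. Of 84 genes named by rule and past the fold, 44 were under it in at least 1 alternative, most often among those cells (32 genes), with the top and bottom 30% (13), in thinned cells (12) and in the split (12). Heat shock proteins turned to 0.0292 there and 0.0263 in the split. The G2M median was -1.43 in thinned cells, -2.95 with 10% and -2.52 within mitochondrial bands, and the S phase median -0.65 in thinned cells. Persistent clusters were at -0.48 with TMM, -0.29 in thinned cells, -0.54 and -0.57 with the minimum of 20 CPM and none, and -0.47 with the totals above. Without a minimum, UGT2B enzymes were at -1.26 and peptide ligands and receptors at 0.0126, where lists hold genes of a few UMIs. With at least 4000 UMIs per cell, medians were 5923 UMIs and 2823 genes in MME-high and 5675 UMIs and 2617 genes in MME-low cells. Apart from those named, the cause was not tested. Genes of 50 to 60 CPM had a median interval width of 1.08 on the log2 scale, so single genes at this level are imprecise.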
